A study of Mus musculus with 91 samples.

Results

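The data described here are the epididymal white adipose tissue (EAT) of C57BL/6J male mice after 24 weeks of feeding, when the animals were 29 weeks old. They comprise 6 of the 91 arrays of the series, picked out by the tissue and week of the sample labels, with earlier results of these data known. Of these, 3 arrays hold RNA pools from mice on the AIN-76 normal diet (ND) and 3 hold RNA pools from mice on the high-fat diet (HFD), which also contained added cholesterol. No transgene, deletion or drug was used. Each array holds RNA pooled from several mice of a diet, and how many mice went into a pool is not given in the sources used here. A p-value is therefore to be read against variation among pools and not among single animals. The question asked of these samples was which genes of visceral fat differ with diet at the end of the feeding period.

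Total RNA was hybridized to the Illumina MouseWG-6 v2 BeadChip, which carries 45281 probes. Intensities were quantile normalized and are given on the log2 scale, 1 gene being read by its brightest probe. On the 6 arrays 39.8% to 44.0% of the probes were detected at a detection p under 0.05, and the 5th percentile of the deposited intensities was 109.9 to 120.7. The adipocyte transcripts Adipoq, Lep, Plin4 and Scd1 had log2 intensities over 14 in every pool. Lcn5, a lipocalin of the epididymis itself, was at 6.71 to 6.95 in the ND pools and 6.80 to 6.88 in the HFD pools and was not detected, while 5 of the 13 measured genes of the epididymis list were detected and none passed the test.

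HFD pool 2 and, to a much lesser degree, ND pool 3 stood apart from the others. HFD pool 2 correlated at 0.979 and 0.981 with the other HFD pools, which correlated at 0.992 with each other, and at 0.965 to 0.970 with the ND pools. By this measure ND pool 3 hardly differed, at 0.993 with each of the other ND pools, which correlated at 0.994 with each other. The deviations of HFD pool 2 and ND pool 3 from their group means correlated at 0.575 across probes. The 50 cytosolic ribosomal protein genes lay at a median of -1.09 from the median of the 6 pools in HFD pool 2 and at -0.37 in ND pool 3, against 0.04 to 0.06 in the other 4 pools. The 30 genes of NADH dehydrogenase subunits lay at -1.52 in HFD pool 2 and at -0.14 in both ND pool 3 and HFD pool 3, and the 10 cytochrome c oxidase genes at -1.36 in HFD pool 2 and -0.24 in ND pool 3. The median over 9360 detected genes stayed within -0.02 to 0.03 in every pool. What made these pools low was not tested, and results that rest on them are given with both left out, a choice made after seeing the data.

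**Figure D1:**
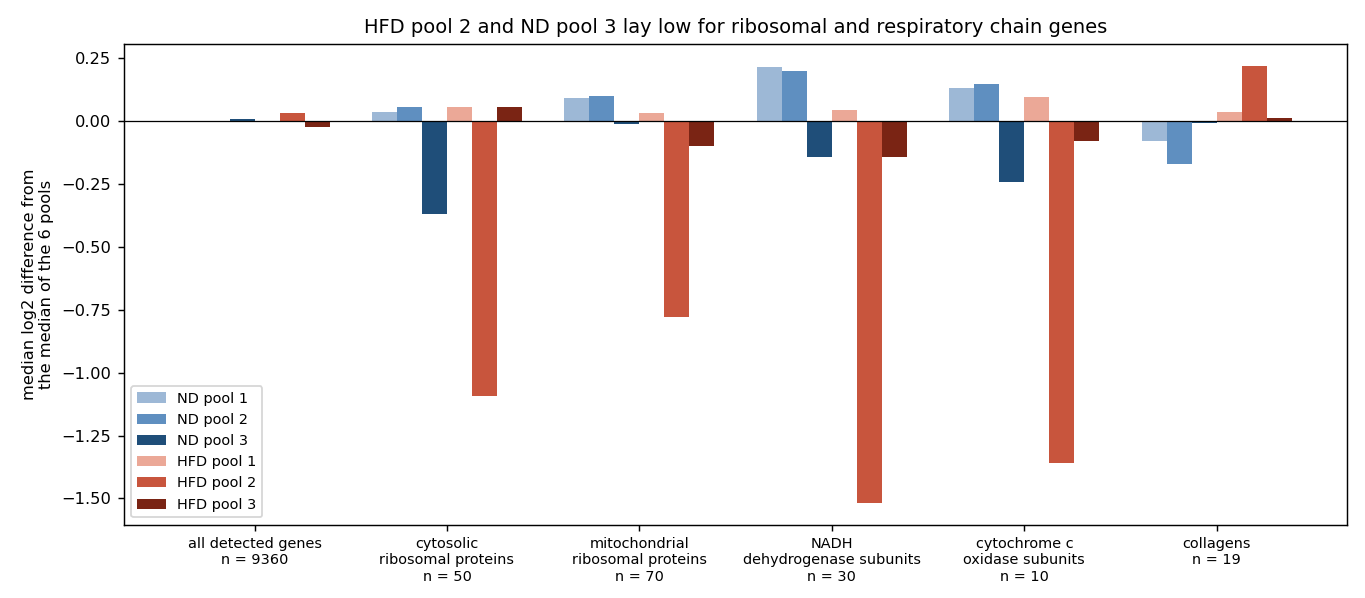
Median distance of the genes of each family from the median of the 6 pools (log2), for the 3 ND and 3 HFD pools of EAT at 24 weeks. HFD pool 2 lies at -1.09 for cytosolic ribosomal proteins and -1.52 for NADH dehydrogenase subunits, and ND pool 3 at -0.37 and -0.14, while all detected genes together lie between -0.02 and 0.03.

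White fat stores triglyceride in adipocytes, which take up fatty acids and glucose, make fatty acids from acetyl-CoA and release them by lipolysis under the control of insulin and catecholamines. Between the adipocytes lie endothelial cells, progenitors, mesothelium and immune cells, of which macrophages are a large part in obesity. In expanding epididymal fat, macrophages gather around dying adipocytes, take up the released lipid and break it down in their lysosomes. Since the RNA was taken from whole tissue, fewer cells of a type and less RNA per cell cannot be told apart in any of the results below.

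HFD and ND differed at 572 probes by an adjusted p under 0.05 and more than 2-fold, the threshold for an HFD-responsive probe. Of these, 442 rose on the HFD (0.976% of all probes) and 130 fell (0.287%), representing 319 and 93 gene symbols. Scaled to the array median instead, 383 rose and 233 fell. All 442 rising probes and 120 of the 130 falling probes had no overlap between the pools of the 2 diets, a separation that 25.8% of all probes showed. With HFD pool 2 and ND pool 3 left out, 392 probes rose and 93 fell, and 370 and 75 of them were the same probes. At the level of single genes, with no limit on the fold, 1536 of 19057 rose (8.06%) and 1177 fell (6.18%), and the median over all genes was -0.000376 on the log2 scale. Without HFD pool 2 and ND pool 3, 1003 genes rose and 612 fell, and with median scaling 1205 rose and 1978 fell. These shares and counts are the background for the gene groups below, each under its own setting. With 3 pools a diet the smallest p of an exact permutation test is 0.1, and every adjusted p below comes from limma.

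The largest rises were those of Zranb3, Trem2, Rgs1, Gpnmb, Cd72, Ctsk, Itgad, Slc37a2, Vsig8 and Arhgap25, in that order. Zranb3, a DNA translocase that works at stalled replication forks, read 8.00, 8.17 and 7.97 in the ND pools and 11.23, 11.90 and 12.09 in the HFD pools. The lowest HFD pool was over 3 log2 units above the highest ND pool, and the difference was 12.9-fold (log2 fold change 3.69, standard error 0.143, adjusted p = 1.91e-14 by limma). Trem2, a lipid-sensing receptor of macrophages, read 9.34, 9.37 and 9.16 in the ND pools against 12.85, 12.51 and 13.24 in the HFD pools. Here HFD pool 2 was the lowest of its group, and without it and ND pool 3 the log2 fold change was 3.69 rather than 3.58. Rgs1, which shuts off G protein signals of chemokine receptors, was 8.08, 8.23 and 7.85 on the ND and 10.99, 11.25 and 11.60 on the HFD, and its other 2 probes gave 3.02 and 2.91 beside the 3.23 of the brightest.

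Gpnmb, a membrane glycoprotein of lysosome-rich macrophages, measured 12.37, 12.12 and 12.31 in the ND pools and 14.83, 15.70 and 15.39 in the HFD pools (8.23-fold, standard error 0.208 on the log2 scale, adjusted p = 1.55e-10). Its 3 other probes all rose, by 1.69 to 4.59. Ctsk, the collagen-degrading cathepsin of osteoclasts, lay at 10.36, 10.38 and 10.48 on the ND and 12.92, 13.59 and 13.59 on the HFD. Groups were more than 2 log2 units apart, a 7.77-fold rise (adjusted p = 4.8e-13). Itgad, the integrin alpha D chain of macrophages, read 7.02, 7.16 and 6.72 on the ND, where 1 of the 3 pools was detected, and 9.60, 10.54 and 9.61 on the HFD. Of its 4 other probes 3 rose, by 0.26 to 2.53, and 1 was not detected in any pool. Cd72 and Vsig8, both of the immunoglobulin or lectin type of surface receptor, Slc37a2, a sugar phosphate transporter of the endoplasmic reticulum, and Arhgap25, a brake on Rac in phagocytes, rose 7.41-fold to 7.97-fold.

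**Figure D2:**
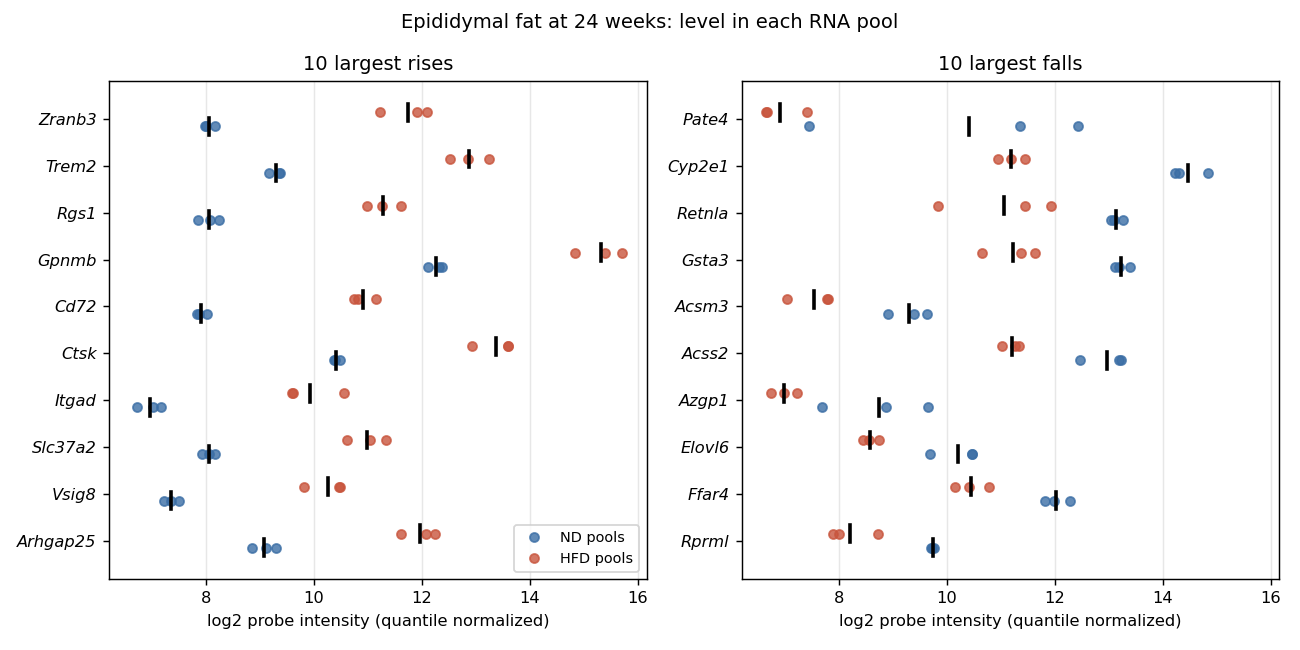
Log2 intensity in each of the 3 ND and 3 HFD pools for the 10 largest rises and the 10 largest falls at 24 weeks, with a bar at the mean of each diet. Only called genes whose pools did not overlap between diets were ranked, so the separation of the diets follows from the choice. Svs5 (-3.95), Tgm4 (-3.32) and Svs4 (-2.46) fell further than most of the falls shown but overlapped. All 10 rising genes have every HFD pool above every ND pool, while among the falling genes Pate4 is high in ND pools 2 and 3 only (12.42 and 11.36, against 7.45 in ND pool 1).

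Among the falling genes Cyp2e1, a cytochrome P450 that oxidizes ethanol, acetone and fatty acids, changed most among the genes that were even within each diet. It read 14.22, 14.31 and 14.85 in the ND pools and 11.44, 11.19 and 10.95 in the HFD pools. The groups were more than 2.5 log2 units apart, and the fall was 9.6-fold (log2 fold change -3.26, standard error 0.17, adjusted p = 1.64e-12). Retnla, a secreted product of alternatively activated macrophages, was 13.25, 13.10 and 13.03 on the ND and 11.92, 9.83 and 11.45 on the HFD, with HFD pool 2 far below the other HFD pools. Its log2 fold change was -2.06 (adjusted p = 0.000198) and -1.49 without the pools that stood apart (adjusted p = 0.00291).

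Gsta3, a glutathione transferase, measured 13.11, 13.19 and 13.38 on the ND and 11.64, 10.65 and 11.37 on the HFD, a 4.01-fold fall. Acss2, the cytosolic enzyme that makes acetyl-CoA from acetate, read 13.18, 12.47 and 13.23 on the ND and 11.26, 11.34 and 11.03 on the HFD. All HFD pools of both genes were more than 1 log2 unit under all ND pools (adjusted p = 5.91e-09 for Gsta3 and 3.44e-05 for Acss2). Elovl6, which lengthens palmitate to stearate, Ffar4, the receptor for long-chain fatty acids on adipocytes, Acsm3, a medium-chain acyl-CoA synthetase, Azgp1, a secreted lipid-mobilizing protein, and Rprml fell by 1.53 to 1.77 on the log2 scale. Of these, Azgp1 read 8.87, 9.65 and 7.70 in the ND pools and 6.75, 6.99 and 7.23 in the HFD pools, the widest spread of the 5, and its fall (adjusted p = 0.0253) did not pass without any single one of ND pools 1 and 2 and HFD pools 1 and 2 (adjusted p = 0.063 to 0.174).

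A small group of falling probes belonged to secretions of the male accessory glands, a list made after these values were seen. Of 12 measured genes of this list 5 fell. Tgm4, the transglutaminase of the prostate, read 6.73, 14.07 and 9.63 in the ND pools and 6.83, 6.75 and 6.89 in the HFD pools. Svs5, a seminal vesicle secretory protein, read 8.11, 13.40 and 12.46 on the ND and 8.23, 6.87 and 7.03 on the HFD. Both genes were high in ND pools 2 and 3 and low in ND pool 1, which overlapped the HFD pools. Without ND pool 2 Tgm4 was at -1.36 and did not pass (adjusted p = 0.0532). Svs4, Svs2 and Pate4 had the same order of the ND pools, and with 6 arrays fitted alone Tgm4, Svs4, Svs5 and Pate4 did not pass (adjusted p = 0.329, 0.164, 0.14 and 0.15). Without these 5 probes 125 probes fell. The 125 still held probes outside the list with the same order of the ND pools. Among them ILMN_2540020, which has no symbol, read 6.98, 12.84 and 9.44 in the ND pools. ILMN_2620114 read 6.63, 12.15 and 7.87, and 9530003J23Rik 6.62, 10.97 and 7.55. How accessory gland transcripts came to be in ND pools 2 and 3 was not tested.

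Macrophage genes rose as a group. Of 20 measured macrophage markers 16 rose and none fell, with a median log2 fold change of 1.20 against -0.000376 over all genes, and 13 of the 16 rose more than 2-fold. Without HFD pool 2 and ND pool 3 the count was again 16, at a median of 1.13. Lcp1, an actin-bundling protein of leukocytes, read 9.04, 9.12 and 9.03 on the ND and 11.15, 11.93 and 11.29 on the HFD. Sirpa, the phagocyte receptor for the CD47 signal, read 11.29, 11.27 and 11.31 against 12.80, 13.54 and 13.06. In both genes the ND pools lay within 0.1 of each other and under all HFD pools (5.25-fold, adjusted p = 9.77e-12, and 3.59-fold, adjusted p = 2.62e-11).

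Adgre1, which encodes the F4/80 antigen, was 7.29, 7.66 and 7.59 on the ND and 8.58, 8.59 and 8.84 on the HFD. Its groups did not overlap (2.23-fold, standard error 0.183, adjusted p = 7.84e-05). C1qb, a chain of the complement component C1q, measured 12.60, 12.70 and 12.56 against 14.27, 14.03 and 14.29 (2.99-fold, adjusted p = 2.05e-06), and C1qc and C1qa rose by 1.34 and 0.95. Tyrobp, the signalling adaptor of Trem2, was less even, at 10.39, 10.36 and 9.35 on the ND and 11.94, 10.58 and 12.33 on the HFD, with HFD pool 2 barely above the highest ND pool (log2 fold change 1.58, adjusted p = 0.00633). Lysozyme (Lyz2) rose 2.32-fold and the receptor of the growth factor CSF1 (Csf1r) 1.55-fold. The 4 members that did not pass were Aif1 (0.24), Mertk (0.21), Itgax (0.19) and Fcgr2b (-0.18). Cd68, a usual macrophage marker, has no named probe in the annotation used.

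**Figure D3:**
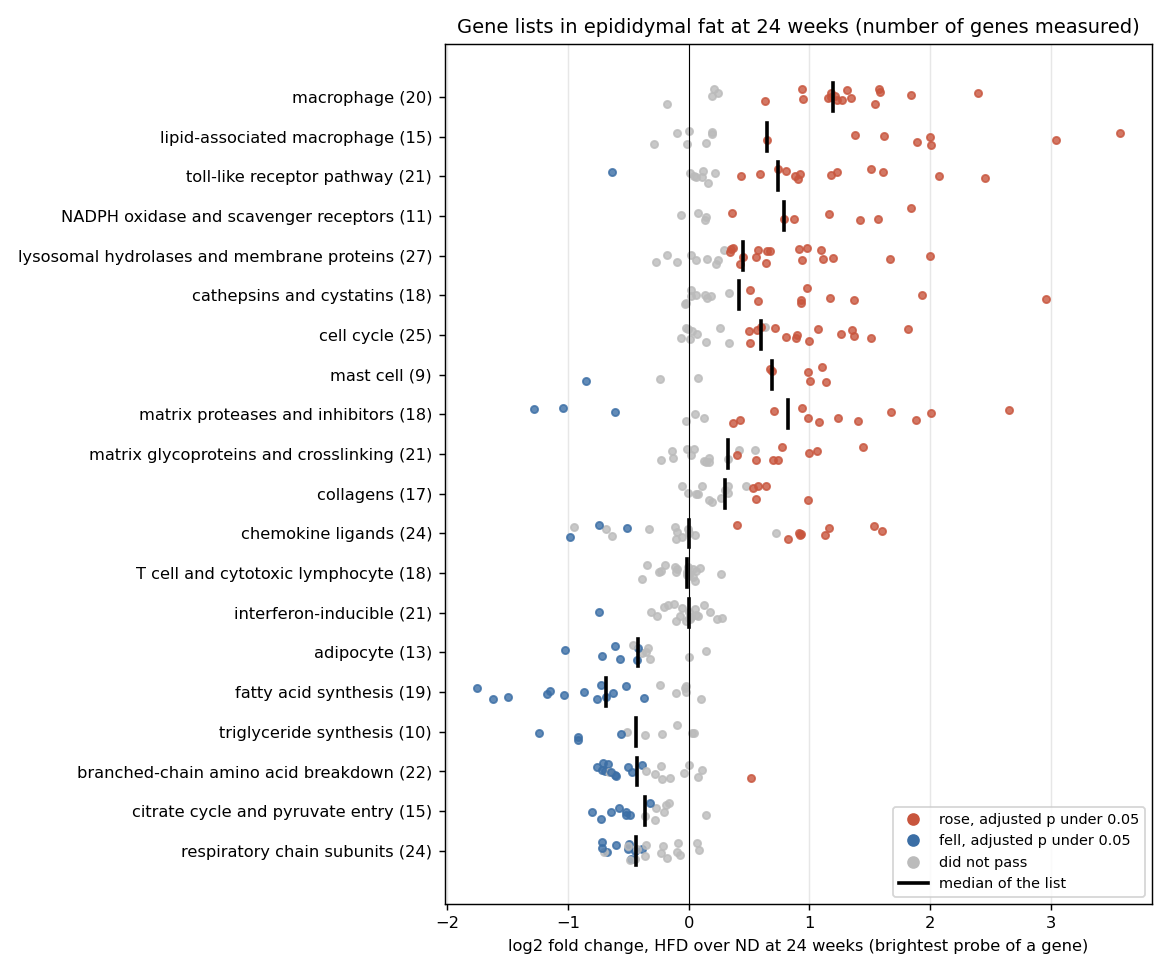
Log2 fold change (HFD over ND, 24 weeks) of each measured gene of 20 lists, red where it rose and blue where it fell at an adjusted p under 0.05, with a bar at the median of the list. The members that passed all rose in the macrophage, lysosomal and cell cycle lists (16, 18 and 15) and all fell in the fatty acid synthesis list (13), and the other members, in grey, lie on both sides of 0.

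Genes of lipid-laden macrophages split. Of 15 measured members 8 rose and none fell, and the 8 were Trem2, Gpnmb, Mmp12, Lipa, Lgals3, Cd9, Plin2 and Cd63. Lipa, the lysosomal acid lipase that frees fatty acids and cholesterol from taken-up lipid, read 10.01, 10.05 and 10.05 on the ND and 11.38, 12.47 and 12.25 on the HFD. The ND pools were nearly equal and all HFD pools more than 1.3 log2 units above them (3.99-fold, adjusted p = 4.21e-07). Plin2, the lipid droplet coat of non-adipocytes, rose 2.6-fold (ND 11.05, 11.09 and 10.95, HFD 12.20, 12.70 and 12.31), and Lgals3 3.71-fold. Of the members that did not pass, Lpl (-0.00), Apoe (-0.29) and Cd36 (0.15) are also made by adipocytes.

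Markers of resident and alternatively activated macrophages moved in both directions. Of 17 measured, 3 rose and 5 fell, at a median of -0.01, and without HFD pool 2 and ND pool 3 only Folr2 rose and 4 fell. Folr2 rose by 0.79, Il10 by 0.55 and the mannose receptor Mrc1 by 0.47, while Retnla, Cd209f, F13a1, Cbr2 and Cd163 fell. Cd209f, a C-type lectin, read 12.23, 11.93 and 12.24 on the ND and 11.16, 10.01 and 10.69 on the HFD. Its HFD pools were all lower and HFD pool 2 lowest (2.86-fold, adjusted p = 3.66e-06, and adjusted p = 0.000165 without the pools that stood apart). Cd163, the haemoglobin scavenger receptor, was 8.58, 8.59 and 8.64 against 8.05, 7.82 and 7.95. This was a smaller but even separation of the groups (log2 fold change -0.66, standard error 0.133, adjusted p = 0.00125). Arg1, often used as a marker of the same state, was 0.52 higher with ND pools spread from 7.16 to 8.29 and did not pass (adjusted p = 0.464).

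The cell surface antigens that the study singled out all rose, but they were chosen on these samples, so that their direction is not independent evidence. All 11 measured were more than 2-fold higher, at a median of 1.62. Cd72, an inhibitory lectin of B cells and macrophages, read 7.88, 8.02 and 7.84 on the ND and 10.74, 10.82 and 11.15 on the HFD. Cd84, a homophilic receptor of the SLAM family, read 9.75, 9.82 and 9.87 against 12.15, 12.98 and 12.50. Cd44, the hyaluronan receptor, read 10.71, 10.46 and 10.46 against 12.07, 13.74 and 12.95. None of the 3 genes had overlapping pools, and Cd44 had the widest HFD spread, with HFD pool 2 highest (5.19-fold, standard error 0.223, adjusted p = 3.65e-08). For Cd300lb, whose ND pools were all below detection, the rise was at least 1.91-fold (measured log2 fold change 1.02, adjusted p = 1.56e-09).

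Toll-like receptors and their partners rose at 13 of 21 measured genes, and 1 fell, with a median of 0.74. The study named several members of this list from the epididymal arrays of this series. It did so too for the cytokine, chemokine, cathepsin, matrix and collagen lists below. The direction of those genes is likewise not independent evidence. Tlr13, the mouse sensor of bacterial ribosomal RNA, read 7.81, 7.74 and 7.62 on the ND and 9.80, 10.58 and 10.16 on the HFD. Cd180, a Toll-like receptor homologue, read 7.87, 7.75 and 7.66 against 9.70, 9.94 and 9.87. Both genes separated by about 2 log2 units (5.49-fold, adjusted p = 6.12e-12, and 4.22-fold, adjusted p = 4.8e-13). Tlr8, Tlr6, Tlr2, Tlr7 and Tlr1 rose by 1.61, 1.18, 0.90, 0.89 and 0.74, together with the lipopolysaccharide co-receptor Cd14 (1.23) and the transcription factor Irf5 (1.51). Tlr4, the lipopolysaccharide receptor itself, was 8.36, 8.44 and 8.46 on the ND and 8.72, 9.48 and 8.84 on the HFD. It rose by 0.59 (adjusted p = 0.0307), but HFD pool 2 was its highest value and it did not pass without the pools that stood apart (0.38, adjusted p = 0.33). Tlr5, the flagellin receptor, fell by 0.63 (adjusted p = 6.21e-05). Tlr3 and Tlr9 were at 0.11 and 0.01.

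Of 14 cytokine and mediator genes 6 rose and none fell, and 4 rose without HFD pool 2 and ND pool 3. Il1rn, the antagonist of the interleukin 1 receptor, was 7.51, 7.39 and 7.29 on the ND and 9.47, 10.11 and 10.10 on the HFD, 5.65-fold higher with no overlap (adjusted p = 8.22e-13). Its agonist Il1b read 7.36, 7.30 and 7.21 against 7.43, 7.34 and 7.35, which overlap (0.09, adjusted p = 0.753). Tnf, the tumour necrosis factor, was 7.13, 7.08 and 7.07 against 7.80, 7.68 and 7.73, an even difference (1.56-fold, adjusted p = 2.06e-07), and its other probe gave 0.73. The ND values of Tnf lay close to the lowest detected signals of their arrays (7.12, 7.09 and 7.08), so its fold is read near background. Il6, Il18, Nos2 and Ptgs2 lay between -0.11 and -0.01. Saa3, an acute-phase protein that fat makes locally, was 1.23 higher but uneven, at 10.04, 9.83 and 8.33 on the ND and 11.39, 9.59 and 10.92 on the HFD (adjusted p = 0.154), and it passed without HFD pool 2 (1.75, adjusted p = 0.0426).

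Chemokine ligands rose at 9 of 24 measured genes and fell at 3. Ccl9, which attracts myeloid cells, read 12.22, 12.24 and 11.99 on the ND and 13.46, 13.95 and 13.85 on the HFD. Ccl3, a chemokine that activated macrophages release, read 7.44, 7.27 and 7.11 against 8.82, 8.28 and 9.30. The diets did not overlap for either gene (3.03-fold, adjusted p = 9.88e-08, and 2.89-fold, adjusted p = 3.63e-07). The monocyte chemoattractants Ccl2 and Ccl7 rose by 0.93 and 1.13, with HFD pool 2 the lowest HFD pool for both. Ccl4 rose by 1.17 (adjusted p = 0.00589), but its HFD pool 2 at 8.54 was close to the highest ND pool at 8.40, and it did not pass without HFD pool 3 or without ND pool 3 (adjusted p = 0.0567 and 0.0607). Cxcl13, Cxcl9 and Cxcl12, ligands that attract B cells, activated T cells and CXCR4-bearing cells, fell by 0.98, 0.74 and 0.51. Without HFD pool 2 and ND pool 3 the counts were 8 up and 2 down.

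Other myeloid functions followed. Of 11 measured genes of the NADPH oxidase and of scavenger receptors 7 rose, among them the oxidase subunits Ncf4 (1.57), Cyba (1.42) and Ncf1 (0.87), the small GTPase Rac2 (1.16) and the beta-glucan receptor Clec7a (1.84). Clec7a read 8.77, 8.97 and 8.38 on the ND and 10.37, 10.54 and 10.73 on the HFD (adjusted p = 1.21e-09). The catalytic subunit Cybb was at 0.13 and did not pass. Of 11 eicosanoid enzymes 3 rose, namely the prostaglandin D synthase Hpgds (ND 7.70, 7.65 and 7.91, HFD 9.62, 10.44 and 10.09), the thromboxane synthase Tbxas1 and the 5-lipoxygenase partner Alox5ap, by 2.30, 1.87 and 0.85. All HFD pools of Hpgds lay more than 1.7 log2 units above the ND pools. MHC class II genes rose at 4 of 10, with H2-DMb2 2.25-fold higher (adjusted p = 3.18e-05) by its brightest probe and at -0.43 by the other (adjusted p = 0.18), while the main chains H2-Aa, H2-Ab1 and Cd74 were 0.34 to 0.47 higher and did not pass. With the 2 pools left out, or with median scaling, 2 and 1 of the 10 passed.

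Lysosomal genes formed a second large group. Of 27 measured lysosomal hydrolases and membrane proteins 18 rose and none fell, at a median of 0.45, and 5 rose more than 2-fold. With HFD pool 2 and ND pool 3 left out 12 rose, at a median of 0.41, and with median scaling 15 rose and 2 fell. Gusb, the lysosomal beta-glucuronidase, read 12.01, 11.92 and 12.24 on the ND and 13.39, 14.12 and 13.66 on the HFD. Hexa, the alpha chain of beta-hexosaminidase, read 11.80, 11.57 and 11.67 against 12.73, 13.15 and 12.74. Neither gene overlapped between diets (3.17-fold, adjusted p = 7.37e-10, and 2.29-fold, adjusted p = 1.12e-08), and HFD pool 2 was the highest pool for both. Grn (1.11), Man2b1 (1.10), Glb1 (0.98) and Psap (0.91) also rose. Gla, the alpha-galactosidase, was below detection on the ND and rose by at least 1.59-fold. Smpd1 (-0.27), Gaa (-0.18) and Ids (-0.09) were the lowest members and did not pass.

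Cathepsins, the proteases of the lysosome, rose at 9 of 18 measured genes of the cathepsin and cystatin list. After Ctsk, the legumain gene Lgmn changed most (ND 12.02, 12.06 and 12.11, HFD 13.78, 14.40 and 13.81, 3.81-fold). Ctsl, a cysteine protease, was 7.70, 7.83 and 7.92 against 8.96, 9.51 and 9.08. Both were above every ND pool in every HFD pool (adjusted p = 2.62e-11 for Lgmn and 1.18e-09 for Ctsl), and Ctsa, Ctsz and Ctsb rose by 1.17, 0.98 and 0.93. Ctss, below detection on the ND with this probe, rose by at least 1.35-fold and did not pass without the 2 pools (adjusted p = 0.0687). Of 14 subunits of the proton pump that acidifies lysosomes and of its MiT transcription factors 8 rose, among them Atp6v1b2 (ND 11.87, 11.90 and 11.91, HFD 13.08, 13.84 and 13.25) and Atp6v0a1 (1.29). The rise of Atp6v1b2 was 2.81-fold with the ND pools within 0.04 of each other. Tfeb and Tfe3 themselves rose by 0.23 and 0.31 and did not pass without the 2 pools, when 5 of the 14 rose.

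The MiT factors TFEB, TFE3 and MITF are known to bind an element of lysosomal promoters whose core is the E-box TCACGTG. That core, searched on both strands in the 250 bases before each start site (RefSeq, GRCm38.p6), was found in 968 of 27025 promoters (3.58%). The core overlaps its own reverse complement CACGTGA, and a promoter with either was counted once. It was found in 6 of the 25 lysosomal genes that have a promoter sequence, namely 5 of 16 that rose and 1 of 9 that did not pass, and in 2 of 10 genes of the proton pump list, both of which rose. A match is a description of the sequence and not a site of binding. The stretches below come from 4 genes that rose and from Gaa, which did not pass, to show the element in its surroundings. They are written 5′ to 3′ on the strand of the gene with 1 match of the core in capitals. The searched windows of Lamp1 and Atp6v0b hold 4 and 2 matches, and a second one stands in lower case in both of these stretches. They are Glb1 at chr9:114401004-114401060 (plus strand), Naglu at chr11:101069995-101070051 (plus strand), Lamp1 at chr8:13159120-13159160 (plus strand), Atp6v0b at chr4:117887330-117887373 (minus strand) and Gaa at chr11:119267797-119267853 (plus strand), all upstream of the first exon.
Glb1: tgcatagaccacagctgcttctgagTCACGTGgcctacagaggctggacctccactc
Naglu: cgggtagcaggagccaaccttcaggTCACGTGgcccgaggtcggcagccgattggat
Lamp1: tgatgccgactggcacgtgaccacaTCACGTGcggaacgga
Atp6v0b: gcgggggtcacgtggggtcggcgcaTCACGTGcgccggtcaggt
Gaa: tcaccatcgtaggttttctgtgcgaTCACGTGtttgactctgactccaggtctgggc
In these 24-week arrays Glb1 read 10.01, 10.15 and 10.14 on the ND and 10.74, 11.52 and 11.00 on the HFD (1.98-fold, adjusted p = 2.56e-05), with its other detected probe at -0.04. Naglu, an enzyme of heparan sulphate breakdown, rose by 0.45, Lamp1, the main protein of the lysosomal membrane, by 0.67 and Atp6v0b by 0.84. Of these genes Naglu (adjusted p = 0.0976) and Lamp1 (adjusted p = 0.0552) did not pass without the pools that stood apart, and Atp6v0b did not pass with median scaling (adjusted p = 0.0856).

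Other elements were searched in the same way. The PU.1 core GAGGAAGT, the element of a master regulator of macrophages, was in 2.79% of all promoters and in 1 of the 14 macrophage genes that have a promoter sequence, C1qc. The sterol regulatory element TCACNCCAC was in 1.22% of all promoters, in 1 of 16 fatty acid synthesis genes, Mlxipl, and in none of 15 sterol synthesis genes.

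Genes of cholesterol efflux and storage and of iron handling also moved. Of 11 measured genes of cholesterol efflux and storage 4 rose, which were Lipa, the phospholipid transfer protein Pltp (1.28), the lysosomal cholesterol exporter Npc1 (0.74, with none of its 6 other probes past the test and 1 that was detected in all pools at -0.25) and the efflux pump Abcg1 (0.65). Of 11 iron handling genes 4 rose and 3 fell. Slc11a1, which pumps iron out of phagosomes, read 12.08, 12.17 and 11.99 on the ND and 13.61, 14.39 and 13.80 on the HFD, and the haem oxygenase Hmox1 read 8.84, 8.52 and 8.50 against 10.28, 10.22 and 9.99. Both were higher in all HFD pools (3.61-fold and 2.91-fold). Transferrin (Trf), ceruloplasmin (Cp) and Cd163 fell by 0.66, 0.63 and 0.66.

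Cell cycle genes rose at 15 of 25 measured genes and none fell, at a median of 0.60, and without the 2 pools 14 rose. Tk1, the thymidine kinase of S phase, read 7.84, 7.58 and 7.29 on the ND and 9.42, 9.18 and 9.55 on the HFD. Mcm5, a subunit of the replicative helicase, read 9.18, 9.01 and 9.01 against 10.25, 10.94 and 10.54. Neither overlapped (3.53-fold, adjusted p = 1.72e-09, and 2.85-fold, adjusted p = 1.29e-09), and the mitotic genes Birc5, Top2a, Plk1 and Cdk1 rose by 1.37, 1.35, 1.26 and 1.07. Ccna2 (-0.01), Ccnb2 (-0.02) and Ube2c (-0.06) did not pass. Cdkn2c, which encodes a cyclin-dependent kinase inhibitor abundant in adipocytes, fell from 12.73, 12.56 and 12.90 to 11.90, 11.33 and 11.62 (adjusted p = 4.82e-07), with its other probes at -1.50 and -0.12 (adjusted p = 1.5e-05 and 0.661).

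Mast cell genes were higher in the HFD pools, with a limit. Of 9 measured genes 6 rose and 1 fell. Cpa3, the carboxypeptidase of mast cell granules, read 7.83, 8.08 and 8.21 on the ND and 8.83, 9.07 and 9.64 on the HFD, and Tpsb2, a tryptase, read 8.14, 8.05 and 8.08 against 8.66, 8.88 and 9.75. HFD pool 3 was the highest pool for both, and also for Cma1, Mcpt4, Tpsab1 and Fcer1a. With the 6 arrays fitted alone 1 member rose and 1 fell. Kit was at -0.24 and did not pass, and the histidine decarboxylase gene Hdc fell by 0.85 (adjusted p = 0.0449) and did not pass without the 2 pools.

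Lymphocyte and interferon genes showed no such shift. None of 18 measured T cell and cytotoxic lymphocyte genes passed, and their median was -0.01. Cd3e read 8.38, 8.34 and 7.94 on the ND and 8.05, 7.68 and 8.25 on the HFD, with overlap (-0.23, adjusted p = 0.519), and Cd4 was not detected in any pool. Of 21 interferon-inducible genes 1 fell, Cxcl9, which did not pass without the 2 pools, and none rose. Of 5 regulatory T cell genes 1 rose and 1 fell, at a median of -0.08, and none rose with the 6 arrays fitted alone. Foxp3, the defining factor of these cells, rose by 0.55 (ND 9.91, 9.94 and 9.90, HFD 10.24, 10.80 and 10.37, adjusted p = 0.000628), and Klrg1, an inhibitory receptor, fell by 0.48 (adjusted p = 0.0044). Blnk, an adaptor of the B cell receptor that macrophages also express, rose 5.13-fold, whereas Ms4a1 and Pax5, which define B cells, were at 0.15 and 0.01.

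Genes that cut and build the extracellular matrix were among those that rose. Of 18 measured matrix proteases and inhibitors 12 rose and 3 fell, at a median of 0.82. Adam8, a metalloprotease of leukocytes, read 7.61, 7.69 and 7.54 on the ND and 9.92, 10.49 and 10.38 on the HFD. Mmp12, the elastase of macrophages, read 7.24, 7.55 and 7.53 against 9.02, 9.35 and 9.97. Both were separated by over 1.4 log2 units (6.28-fold, adjusted p = 4.58e-14, and 4.02-fold, adjusted p = 6.45e-06). Mmp3, Mmp13 and Mmp2, which cleave proteoglycans and collagens, rose by 1.68, 1.40 and 1.24, and the inhibitor Timp1 by 1.88. Mmp9, a gelatinase, moved the other way, at 8.85, 8.52 and 8.52 on the ND and 7.73, 7.52 and 7.52 on the HFD (-1.04, adjusted p = 1.1e-06), as did the inhibitors Timp4 (-1.28) and Timp3 (-0.61).

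Collagens rose at 5 of 17 measured genes and none fell. Col1a1, the main chain of type I collagen, read 10.21, 10.02 and 9.74 on the ND and 10.81, 10.87 and 11.25 on the HFD, a 1.98-fold rise (standard error 0.169, adjusted p = 0.000213). Its groups did not overlap, and the value without the 2 pools was 0.91 (adjusted p = 0.00636). Col6a2, Col3a1, Col6a1 and Col5a1 rose by 0.53 to 0.64. With the 2 pools left out 2 of the 17 rose, and with median scaling 1. Of 21 matrix glycoproteins and crosslinking enzymes 8 rose and none fell, and without the 2 pools 4 rose. Lum, a keratan sulphate proteoglycan that spaces collagen fibrils, read 11.40, 11.15 and 11.65 against 12.45, 13.41 and 12.66, the growth factor gene Tgfb1 9.34, 9.02 and 9.09 against 10.11, 10.20 and 10.33. All HFD pools of both were the higher ones (2.72-fold and 2.09-fold). Dcn, Sparc and Postn, other products of fibroblasts, were at -0.01, 0.13 and 0.02.

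Adipocyte genes moved downward. Of 13 measured adipocyte markers 6 fell and none rose, at a median of -0.42, and 7 fell without the 2 pools. Slc2a4, the insulin-regulated glucose transporter GLUT4, read 10.47, 10.40 and 10.90 on the ND and 9.78, 9.74 and 9.19 on the HFD. Pparg, the master regulator of fat cell formation, read 13.36, 13.28 and 13.67 against 12.65, 13.04 and 12.48. Groups were apart in both (2.03-fold lower, adjusted p = 0.000838, and 1.64-fold lower, adjusted p = 0.00192), although the other probes of Pparg, at -0.40 and -0.40, did not pass (adjusted p = 0.135 and 0.0557). Adiponectin (Adipoq), an insulin-sensitizing hormone of fat, was 14.89, 14.86 and 15.09 on the ND and 14.52, 14.16 and 14.33 on the HFD (-0.61, adjusted p = 0.000155). Fabp4, Plin1 and Cebpa were 0.32 to 0.46 lower and did not pass. With median scaling 10 of the 13 fell, and with the 6 arrays fitted alone 3.

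Among other secreted factors, leptin (Lep), the satiety hormone, read 15.29, 15.61 and 15.42 on the ND and 15.65, 16.00 and 15.73 on the HFD. The groups did not overlap, yet the difference did not pass (0.35, standard error 0.161, adjusted p = 0.197). The Lep readings are among the highest given here, and a probe of the haemoglobin gene Hbb-bs averaged 16.08 in the ND pools. Whether signals this bright understate a difference was not tested. The study reports leptin mRNA as up-regulated on the HFD over the feeding period, by array and by RT-qPCR. Resistin (Retn) fell from 8.64, 8.35 and 8.42 to 7.77, 7.47 and 7.59 (1.82-fold, adjusted p = 8.8e-05). Nrg4, a neuregulin that fat sends to the liver, fell from 11.64, 11.81 and 12.14 to 10.65, 10.84 and 10.05. Neither overlapped between diets, and the fall of Nrg4 was 2.55-fold (adjusted p = 0.000229). Agt, the angiotensin precursor, fell 2.66-fold, and Hsd11b1, which regenerates active glucocorticoid, 2.75-fold.

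Fatty acid synthesis genes fell as a group. Of 19 measured members 13 fell and none rose, at a median of -0.69, and without the 2 pools 9 fell, at a median of -0.75. Slc25a1, which exports citrate from mitochondria, fell by 0.86, and Acly, which splits it to acetyl-CoA, by 1.15. Acly read 13.80, 13.19 and 13.93 on the ND and 12.26, 12.76 and 12.46 on the HFD, without overlap (adjusted p = 0.00844, and adjusted p = 0.0582 without the 2 pools). Acacb, a carboxylase that makes malonyl-CoA, fell by 1.03, whereas Acaca, the cytosolic form, was at 0.10 and did not pass.

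Fasn, the fatty acid synthase, read 7.90, 7.73 and 8.22 on the ND and 7.30, 7.39 and 7.10 on the HFD on its probe, an even fall (-0.69, adjusted p = 0.00908, and 0.0865 without the 2 pools). HFD pool 3 lay under the lowest detected signal of its array (7.12), so the size of this fall is read near background. Scd1, the desaturase, fell by 0.37 (adjusted p = 0.00633). Thrsp, a lipogenic regulator, read 13.67, 13.41 and 13.88 against 12.50, 11.74 and 12.24, and Pnpla3, a lipid droplet lipase, 10.12, 9.99 and 10.16 against 9.16, 8.56 and 9.04. Both were lower in every HFD pool (2.81-fold and 2.26-fold). Of the transcription factors that drive the pathway, Mlxipl, which encodes the glucose sensor ChREBP, read 10.25, 10.30 and 10.32 against 9.48, 9.68 and 9.53 (-0.73, adjusted p = 8.22e-05). Srebf1 fell by 0.52 (adjusted p = 0.0389) but did not pass without any single pool other than HFD pools 1 and 2 (adjusted p = 0.0584 to 0.185), and its other probe was at 0.04. Scd2, Elovl5, Fads1 and Fads2 lay between -0.24 and -0.02.

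**Figure D4:**
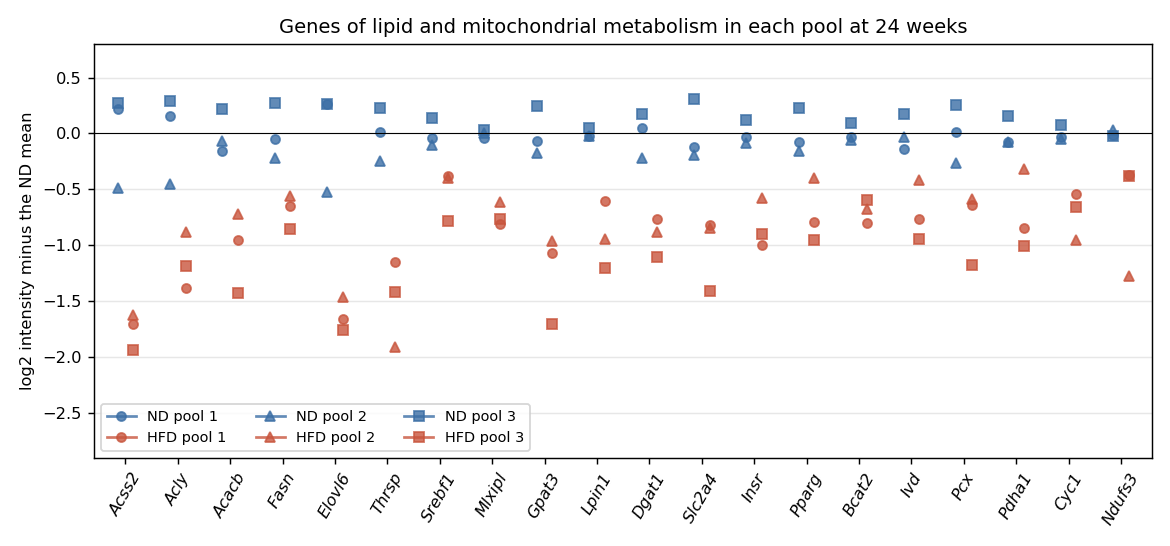
Log2 intensity of each ND pool (blue) and HFD pool (red) at 24 weeks minus the mean of the 3 ND pools, for 20 genes of lipid and mitochondrial metabolism. The genes are examples picked with their values known, and Acaca, which did not pass, is among the list members not shown. For the genes shown every HFD pool lies below every ND pool, while 25.8% of all probes had no overlap in either direction. In Ndufs3 HFD pool 2 (log2 intensity 10.92) lies well below the other HFD pools (11.83 and 11.82).

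Steps after fatty acid synthesis fell in part. Of 10 triglyceride synthesis genes 4 fell. Gpat3, an acyltransferase of the first step, read 11.27, 11.17 and 11.59 on the ND and 10.27, 10.38 and 9.64 on the HFD, and Dgat1, which adds the last acyl chain, read 11.31, 11.04 and 11.44 against 10.49, 10.38 and 10.16. Both were lower in all HFD pools (2.37-fold and 1.89-fold), as was the phosphatidate phosphatase Lpin1 (1.89-fold), while Dgat2 and Gpd1 were at -0.10 and -0.22. Of 11 lipolysis genes 5 fell (3 without HFD pool 2 and ND pool 3, and 8 with median scaling), and these were Lipe (-0.42), the hormone-sensitive lipase, and 4 that restrain lipolysis, G0s2 (-0.93), Hcar1 (-0.90), Hcar2 (-0.73) and Ffar4 (-1.58). G0s2 read 13.04, 11.24 and 12.60 in the HFD pools and did not pass without the pools that stood apart (adjusted p = 0.273), nor did Lipe and Hcar1 (adjusted p = 0.205 and 0.0563). Sterol synthesis moved little, with 4 of 18 genes up, by 0.35 to 0.57, and 1 down, and 1 up and none down without the 2 pools. Of 16 fatty acid oxidation genes 1 rose and 2 fell, the riser being the pyruvate dehydrogenase kinase Pdk4 (1.04, and 0.64 with adjusted p = 0.298 without the 2 pools). None of the 16 passed in either direction without the 2 pools, and 6 fell with median scaling.

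Insulin signalling genes fell at 3 of 15 measured, and at 8 with median scaling. The insulin receptor (Insr) read 11.45, 11.39 and 11.59 on the ND and 10.48, 10.89 and 10.57 on the HFD, and Akt2, the kinase downstream of it, 9.32, 9.27 and 9.33 against 8.87, 8.63 and 8.21. All HFD pools were lower for both (1.77-fold, adjusted p = 0.000147, and 1.67-fold, adjusted p = 0.016), but Akt2 did not pass without the 2 pools (adjusted p = 0.0916). The third was Slc2a4. The substrates Irs1 and Irs2 were at 0.06 and -0.59 and did not pass.

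Breakdown of branched-chain amino acids, which in fat feeds lipogenesis, fell at 11 of 22 measured genes and rose at 1, at a median of -0.43, and without the 2 pools 6 fell at a median of -0.36. Bcat2, the mitochondrial transaminase of the first step, read 10.63, 10.60 and 10.76 on the ND and 9.86, 9.99 and 10.07 on the HFD. Bckdhb, a subunit of the dehydrogenase of the second step, read 9.14, 9.25 and 9.49 against 8.72, 8.73 and 8.61. Neither overlapped between diets (1.61-fold, adjusted p = 0.00406, and 1.52-fold, adjusted p = 0.00185), but Bcat2 did not pass without the 2 pools (adjusted p = 0.0566). With median scaling 14 of the 22 fell. The later enzymes Ivd, Pcca, Pccb and Echs1 fell by 0.60 to 0.76, and these 4 passed without the 2 pools as well. The rising member was Bcat1, the cytosolic transaminase of other tissues (0.52, adjusted p = 0.00245), and it did not pass without the 2 pools (adjusted p = 0.164).

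Mitochondrial genes are given with and without the pools that stood apart. Of 15 genes of the citrate cycle and pyruvate entry 8 fell, at a median of -0.36, and 5 without the 2 pools, at a median of -0.37. The pyruvate carboxylase gene Pcx read 11.08, 10.80 and 11.32 on the ND and 10.42, 10.48 and 9.89 on the HFD, and Fh1, the fumarase, 11.56, 11.39 and 11.53 against 10.96, 10.83 and 10.77. Both were lower in all HFD pools (1.74-fold and 1.56-fold), and HFD pool 2 was not the lowest HFD pool for either. Respiratory chain subunits behaved otherwise. Of 24 measured 9 fell, at a median of -0.44, and without the 2 pools 4 fell, at a median of -0.22.

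Atp5o, a stalk subunit of ATP synthase, was 13.87, 13.86 and 13.90 on the ND and 13.53, 12.46 and 13.47 on the HFD. HFD pool 2 was 1 log2 unit under the other HFD pools, and the fall of 0.72 (adjusted p = 0.0192) became 0.37 without the 2 pools (adjusted p = 0.316). Cytochrome c1 (Cyc1) was more even, at 12.21, 12.19 and 12.32 against 11.70, 11.29 and 11.58, and passed with and without them (adjusted p = 0.00018 and 0.0159). Over the wider family of 30 NADH dehydrogenase genes the median was -0.55 with all pools and -0.28 without the 2, and over 10 cytochrome c oxidase genes -0.46 and -0.21.

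Glutathione transferases fell within the antioxidant list, of whose 21 measured genes 6 fell and 1 rose. Beside Gsta3, Gsta4 read 9.82, 9.70 and 9.68 on the ND and 8.47, 8.48 and 8.26 on the HFD, and Gstt1 and the secreted peroxidase Gpx3 fell by 0.92 and 0.91. The pools of Gsta4 were tight within each diet and 1.2 log2 units apart (2.52-fold, adjusted p = 4.45e-05). The riser was Srxn1, which repairs oxidized peroxiredoxins (0.94, adjusted p = 1.37e-06). Of 13 circadian clock genes 4 fell, Per2, Nr1d1, Tef and Cry2, by 0.57 to 0.86, while Arntl and Clock were at 0.20 and 0.02, and 7 fell with median scaling. The hour at which each pool's tissue was taken is not given in the sources used here. Endothelial genes fell at 3 of 13, among them Flt1 (-0.57), 1 without the 2 pools and 8 with median scaling, and Vegfa fell by 0.76 (adjusted p = 0.0246) but did not pass without the 2 pools. Immediate early genes rose at 3 of 10, Egr2, Fos and Junb, by 1.76, 1.59 and 0.90 (Junb did not pass without the 2 pools), and Atf3, a stress-induced transcription factor, rose 7.23-fold, from 7.78, 7.87 and 7.63 to 10.53, 10.64 and 10.67 (adjusted p = 3.42e-15).

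Among markers of other tissues, red cell genes fell in 2 of 3 cases. Alas2, the haem synthesis enzyme of red cell precursors, read 10.90, 11.38 and 11.82 on the ND and 10.25, 9.94 and 10.08 on the HFD, and Slc4a1, the band 3 anion exchanger, 9.29, 9.27 and 9.86 against 8.36, 8.30 and 8.36. ND pool 3 was the highest for both, and neither passed without the 2 pools (adjusted p = 0.139 and 0.0984). Of the dimmer probes of the haemoglobin gene Hbb-bs, those that passed lay at -0.36 to -1.98 (adjusted p = 0.0412 to 0.00134 by limma). Another, at -0.21, did not pass (adjusted p = 0.22). At 20 weeks 2 of the 3 red cell genes fell, at a median of -1.31. None of 10 liver, 7 testis and 10 mesothelial genes passed, and of 9 skeletal muscle genes 1 did, Pvalb, which rose by 1.64 (adjusted p = 0.0185) and did not pass without the 2 pools. Amy2a5, an amylase gene, fell 2.15-fold from over 13 on the log2 scale, while the other 5 genes of the pancreas list lay between -0.07 and 0.07. Their part in the comparison of diets was not tested.

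The same comparison at 20 weeks of feeding, with 6 other pools, gave 288 rising and 197 falling probes. Of the probes that rose at 24 weeks 219 also rose at 20 weeks, 49.5% of the 24-week and 76.0% of the 20-week list. Of those that fell 23 were shared, 17.7% of the 24-week and 11.7% of the 20-week list, and no probe was called in opposite directions. A test of the difference between the 2 diet effects called 190 probes, 110 with a higher and 80 with a lower value at 24 weeks. Normexp background correction gave 155 and median scaling 1190. The array background differed between the weeks in both diets, and its part in this difference was not tested. Of the 442 rising probes 48 rose more and 2 less at 24 than at 20 weeks by the test of the difference. Of the 130 falling probes 7 fell more. These probes were called on their 24-week values, which also enter the difference, so a larger change at 24 weeks was favoured in advance. The count of 190 rests on few pools. It was 52 without HFD pool 2 and ND pool 3 and 14 when ND pool 1 of 20 weeks was left out as well, which has low ribosomal (-0.92) and NADH dehydrogenase genes (-1.02) like the other 2 pools.

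**Figure D5:**
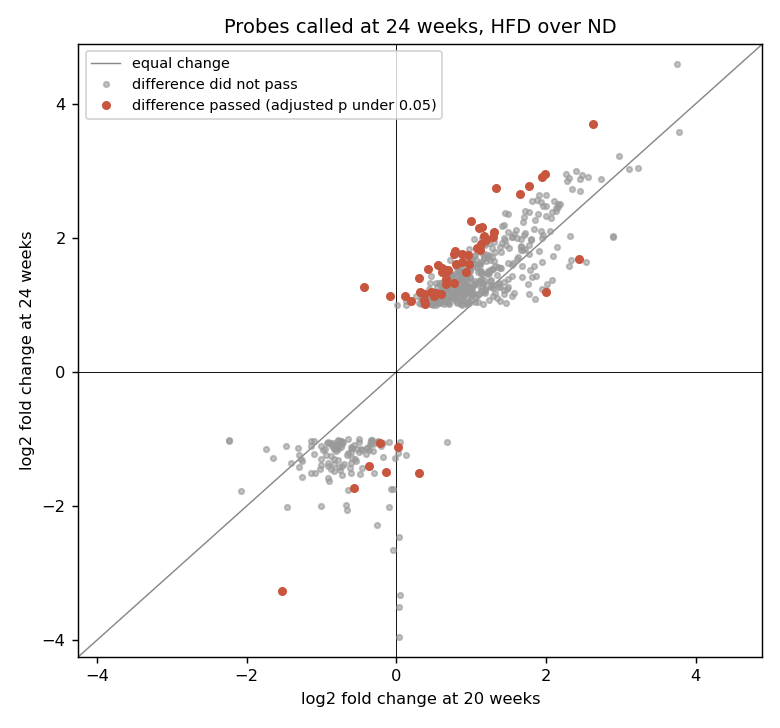
Log2 fold change of HFD over ND at 24 weeks against that at 20 weeks for the probes called at 24 weeks. No called probe lies past the threshold in opposite directions, 219 rising and 23 falling probes are called at both weeks. Red points are probes whose change differed between the weeks by the test of the difference. All points were called on 24-week values that also enter this difference.

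Among 164 genes followed singly, Cyp2e1 had the most negative difference that passed. It moved by -1.53 at 20 weeks against -3.26 here (difference -1.73, adjusted p = 0.00207 by limma, and 0.0146 with the 3 pools left out). At the level of genes 59 differed upward (0.31%) and 36 downward (0.189%) between the weeks. Of the lists, 2 of 20 macrophage genes, Itgam and Sirpa, rose more at 24 weeks, and 2 cathepsins, Ctsk and Ctsb, rose more and 1, Ctss, less. Without HFD pool 2 and ND pool 3 the differences of Itgam, Sirpa and Ctsk did not pass (adjusted p = 0.193, 0.0805 and 0.151), and with ND pool 1 of 20 weeks left out too, those of Ctsb and Ctss did not (adjusted p = 0.0719 and 0.0542). Trem2 rose by 3.78 at 20 weeks. The brightest probe of Gpnmb rose by 3.23 at 20 weeks, and of its other probes 1 rose more at 24 weeks (difference 1.40, adjusted p = 0.000237) and 1 less (-0.76, adjusted p = 0.00593). Genes of fatty acid synthesis fell at 5 of 19 at 20 weeks, at a median of -0.31, but the difference between the weeks passed for 1 of them, Thrsp, which was at -0.14 at 20 weeks.

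Mesenteric fat (MAT) of the same week was measured on 1 array per diet, so that its values have no replicate check and no test. Of the 427 probes that rose in EAT and were detected in MAT, 370 were higher on the HFD there, 27 of them more than 2-fold. Of the 121 that fell in EAT, 105 were lower in MAT, 52 of them more than 2-fold. Over all 21383 detected probes of MAT 546 were more than 2-fold higher and 383 more than 2-fold lower. How many of them were higher or lower by any amount was not counted, so the 370 and the 105 have no background. Macrophage genes differed by a median of 0.32 in MAT against 1.20 in EAT, and fatty acid synthesis genes by -1.73 against -0.69. Trem2 was 1.15 higher and Gpnmb 1.49 higher on the MAT array, and Elovl6 and Acss2 were lower there by log2 differences of -4.81 and -3.95.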

How the data were processed

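RNA of EAT was measured on 30 arrays, of which the 6 of 24 weeks are described. The authors deposited probe intensities from BeadStudio, without normalization (the notes of the submitters list BeadStudio 3.1.3 and R 2.4.1), and a detection p-value for each probe, as well as quantile normalized log2 values. The deposited intensities of the 30 arrays were quantile normalized here and log2 transformed in R 4.3.3, with no filter on dim probes, and differed from the deposited log2 values by at most 0.000715.

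HFD was compared with ND in 1 fit over the 30 arrays with limma 3.58.1 (lmFit and eBayes), adjusted over the 45281 probes by the Benjamini-Hochberg method. A probe was HFD-responsive at an adjusted p under 0.05 and a log2 fold change over 1 in size. Members of gene lists were counted at an adjusted p under 0.05, with the brightest probe per gene. Symbols came from the array annotation: 34885 probes had 1, 18 several and 10378 none. Where all pools of 1 diet were below detection, the fold is a bound. Named were the 10 largest rises and falls without overlap of the pools, the genes the study names for EAT, the leading members of each list, and other members as examples chosen after their values were seen. The members of the comparison and the gene lists were chosen with earlier results of these data known. The procedure was tested on simulated data.

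Results were recomputed with median scaling, with normexp (offset 16), with the 6 arrays normalized or fitted alone and with the deposited log2 values. Further settings were a filter on detection, a replicate block, Student's t-test, no fold limit, other probes and each pool left out. Chosen after seeing the data were the settings without HFD pool 2 and ND pool 3, and without ND pool 1 of 20 weeks. No source used here gives the chip of an array, and chip was not a term of the fit. The number of pools limits the precision.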

Additional observations from a re-analysis of the deposited data

Results flagged for a closer look

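A set of 164 genes, which leaves out some of those named above, was followed singly. For 17 of them the diet effect at 24 weeks differed from that at 20 weeks (limma test of the difference, adjusted p under 0.05). Some of the 164 were picked on their 24-week change, which also enters this difference, and the array background differed between the weeks. The difference, as the log2 fold change at 24 weeks minus that at 20 weeks, was negative for Cyp2e1 (-1.73), Ctss (-1.38), Thrsp (-1.36), Cdkn2c (-1.13), Cyc1 (-0.76) and Dgat1 (-0.73). It was positive for Itgam (0.54), Gla (0.63), Sirpa (0.76), Ctsb (0.80), Vsig8 (0.96), Ctsk (0.97), Mrgprb2 (0.99), Adam8 (0.99), Zranb3 (1.07), Ckb (1.21) and Cpe (1.69). Cpe, a carboxypeptidase of peptide hormone processing, did not pass at 20 weeks (-0.43, adjusted p = 0.271) and rose by 1.27 at 24 weeks. Ckb, a creatine kinase, was at -0.08 at 20 weeks and rose by 1.13 at 24 weeks, and Mrgprb2, a receptor of mast cells, was at -0.08 and rose by 0.91. Ctss and Gla were below detection in all ND pools at 24 weeks, so that their rises there are bounds and the differences of these 2 genes depend on values at background. Leaving out HFD pool 2 and ND pool 3 of 24 weeks, 9 of the 17 passed, and with ND pool 1 of 20 weeks left out too, Cyp2e1 (adjusted p = 0.0146) and Adam8 (adjusted p = 0.0495) did.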

How the results depend on the processing

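The number of probes that rose at 24 weeks was 442 and of those that fell 130, and the diet effects of 24 and 20 weeks differed at 190. Median scaling gave 383, 233 and 1190, and normexp background correction 873, 364 and 155. With no fold limit 2711 rose and 2040 fell. The paper names LIMMA for its array calls and Student's t-test among its general statistics. That t-test on the 6 arrays gave 436 and 119 unadjusted, and 99 and 8 after Benjamini-Hochberg adjustment. Pool numbers were taken from the sample descriptions, and the sample titles number the HFD pools otherwise. Same-numbered pools of the diets had deviations that correlated at 0.21, -0.41 and -0.49. These values cannot show whether a number marks a shared batch, since the likeness of HFD pool 2 and ND pool 3 (0.575) weighs on all of them. With a replicate block on the 6 arrays 384 rose and 85 fell. Leaving out each pool in turn gave 424 to 518 rising and 118 to 209 falling probes, and 68 to 744 for the difference between weeks. The highest 3 values came without HFD pool 1 and the 68 without HFD pool 1 of 20 weeks. The difference called 52 probes without HFD pool 2 and ND pool 3, and 14 with ND pool 1 of 20 weeks left out too. Leaving out each pool, 13 to 16 macrophage genes, 12 to 17 lysosomal and 14 to 16 cell cycle genes rose, and 9 to 13 fatty acid synthesis genes fell. A set of 164 genes was followed singly, and none of these changed direction while called. Without HFD pool 2 and ND pool 3 19 of these 164 no longer passed, and by the adjusted t-test 118. The set leaves out some genes named above. Tlr4, G0s2, Akt2 and Atp5o, which also did not pass without the 2 pools, are not among the 19. The causes of these changes were not tested.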
